A study of Mus musculus with 21 samples.

Results

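Interferon-stimulated genes are the transcripts that cells make more of when interferon binds its receptors. A list of 42 of them was followed in marrow progenitor cells with and without the cohesin subunit Stag2, and all 42 are rows of the count table, which holds 30733 genes. The members were chosen by name and no measured value entered the rule, although earlier results of these data were known when they were chosen. Stag2 knockout (KO) and wild-type (WT) mice were compared in 3 sorted populations, in 21 libraries. LSK cells (lineage-negative, Sca-1+, Kit+; stem cells and multipotent progenitors) gave 3 KO and 4 WT libraries, granulocyte-monocyte progenitors (GMP) gave 4 KO and 3 WT, and the erythroid progenitors named CFU-E gave 4 KO and 3 WT. Marrow of every group went through magnetic removal of lineage-positive cells, sorting and TRIzol extraction. The labels give no age, strain, allele or Cre driver, and they do not say that replicates were separate animals, so a p-value covers only how far these libraries differ, which may be technical. In published work a conditional Stag2 allele was deleted in marrow with Mx1-Cre, a driver that itself answers to interferon and is usually switched on with poly(I:C); whether these animals, WT included, were given it is not stated in the sources used here.

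Interferons act through cell-surface receptors and JAK kinases. Type I interferons activate a factor that contains STAT2 and IRF9 and binds the interferon-stimulated response element (ISRE), whereas interferon gamma acts through the gamma-activated site (GAS). The induced proteins sense foreign RNA, block viral replication and translation, and load antigen. In marrow, interferon drives resting stem cells into division, and stem cells are known to keep part of this programme on without an infection.

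Upstream sequence of the members was examined for these 2 elements first, because all the members are grouped by their answer to interferon. RefSeq promoters (GRCm38.p6, the 250 bases before each start site) were at hand for 33 of the 42 members, while the counts were made on another build. The ISRE was searched as GAAANNGAAA and the GAS as TTCNNNGAA, each on both strands. The ISRE letters occurred upstream of 12 of the 33 members (36.4%), against 3.46% of 27025 genes. The GAS letters occurred upstream of 9 of the 33 (27.3%), against 8.13% of genes. The ISRE letters were found in GTPases (Gbp2, Gbp3, Igtp, Irgm1 and Irgm2), effectors (Ifit1, Ifit3, Oas3, Rsad2 and Bst2) and regulators (Isg15 and Stat2). In 3 members both elements occurred, and in 1 of them, Bst2, they overlapped. A match is a description of letters and not of binding. The stretches shown are those of the members whose values are described most closely, with every match of either element in capitals and read 5′ to 3′ on the strand of the gene.
Gbp2 and Igtp, GTPases, each hold ISRE letters close to the start site; in Igtp GAS letters (the capitals on the left) come just before them. The Gbp2 stretch is chr3:142620589-142620628 on the plus strand, and its ISRE letters end 49 bases before the start site. The Igtp stretch is chr11:58199507-58199546 on the plus strand, and its ISRE letters end 24 bases before the start site.
Gbp2: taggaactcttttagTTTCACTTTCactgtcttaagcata
Igtp: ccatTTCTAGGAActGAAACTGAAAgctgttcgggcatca
Isg15, the ubiquitin-like modifier, and Rsad2, the antiviral enzyme viperin, also hold ISRE letters, in Isg15 as a run of overlapping matches. The Isg15 stretch is chr4:156200860-156200899 on the minus strand, and its last ISRE match ends 56 bases before the start site. The Rsad2 stretch is chr12:26456548-26456587 on the minus strand, and its ISRE letters end 110 bases before the start site.
Isg15: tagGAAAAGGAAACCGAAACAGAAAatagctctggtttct
Rsad2: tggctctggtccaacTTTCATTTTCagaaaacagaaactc
Eif2ak2 and Ifit2, both brakes on translation, hold GAS letters in this window and no ISRE letters of the form searched. The Eif2ak2 stretch is chr17:78882727-78882765 on the minus strand, and its GAS letters end 169 bases before the start site. The Ifit2 stretch is chr19:34550444-34550476 on the plus strand, and its GAS letters end 232 bases before the start site.
Eif2ak2: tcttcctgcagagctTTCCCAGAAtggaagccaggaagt
Ifit2: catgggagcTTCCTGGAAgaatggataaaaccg

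Depth was 22813333 to 32196233 counts in LSK libraries, 3654667 to 5550165 in CFU-E libraries and 1250683 to 4401993 in GMP libraries, where each KO library (1250683 to 3471881) was shallower than each WT library (3732769 to 4401993). LSK libraries cover full transcripts and the others only 3′ ends, so LSK levels are set against neither. Markers matched the labels in that Ly6a, the gene of Sca-1, ran from 56.4 to 210.1 CPM (counts scaled to the library total) in LSK and from 0 to 2.33 in GMP, Mpo from 9299 to 26412 in GMP, and Klf1 from 571 to 752 in CFU-E; Mpo was also present in LSK, from 3550 to 12874. In every GMP library neutrophil granule markers (6 genes, 73298 to 204659 CPM summed) exceeded the GMP markers (6 genes, 21254 to 53744). Stag2 itself was lower in the KO libraries of LSK, 72.2 ± 6.60 CPM (SD, n = 3) against 166 ± 16.9 (n = 4; adjusted p = 0.027), and of CFU-E, 64.0 ± 15.7 (n = 4) against 140.3 ± 17.6 (n = 3; adjusted p = 0.0143). The LSK call ended without any one of KO 1, KO 2, KO 3, WT 3 or WT 4 (adjusted p up to 0.151), and the CFU-E call without WT 3 (0.703), where the term for the sequencing flow cell leaves KO 1 alone against WT 1 and WT 2. In GMP the libraries labelled KO overlapped WT, 106 ± 30.3 against 147 ± 51.0 CPM (adjusted p = 0.36), so GMP KO here means the libraries labelled KO. A 3′ tag outside the deleted exons would not show the deletion, so the GMP and CFU-E values are no full check of the labels.

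The list holds 3 RNA sensors (Ddx58, Ifih1 and Dhx58) and 4 transcription factors of the response (Irf1, Irf7, Irf9 and Stat2). The ISG15 system and related ligases give 6 members, Isg15, Usp18, Trim25, Parp9, Parp14 and Dtx3l. Direct antiviral effectors are the largest class, with Ifit1, Ifit2, Ifit3, Mx1, Mx2, Bst2, Eif2ak2, Oas2, Oas3, Oasl1, Oasl2, Isg20, Samhd1, Rsad2 and Cmpk2. The GTPases are Gbp2, Gbp3, Gbp6, Ifi47, Igtp, Irgm1 and Irgm2, antigen processing is covered by Psmb8, Psmb9 and Tap1, and Rtp4, Xaf1, Ifi35 and Ifi44 make up the rest.

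The members took 0.262% to 0.317% of counts in LSK libraries, 0.118% to 0.161% in GMP libraries and 0.0995% to 0.165% in CFU-E libraries. All 42 passed the filter on low counts in LSK, where GMP had 28 and CFU-E 32 that did. The 9 that passed in LSK alone were Ifit1, Ifit3, Mx1, Mx2, Oas2, Oasl2, Gbp6, Xaf1 and Ifi44. Their highest level in any GMP or CFU-E library was 4.63 CPM, for Oasl2, and Gbp6 was at 0 in every CFU-E library. There 3 counts, the limit that a count of 0 allows, are 0.541 to 0.821 CPM by library total alone, without TMM scaling. Of the others, Irf7, Usp18, Oas3, Oasl1 and Rtp4 failed only in GMP and Gbp2 only in CFU-E. Ifit3 and Gbp6 have near-identical neighbours in the mouse genome, so their counts may be shared with those copies. In sorted bulk RNA, fewer cells of a type and less RNA per cell cannot be told apart.

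**Figure D1:**
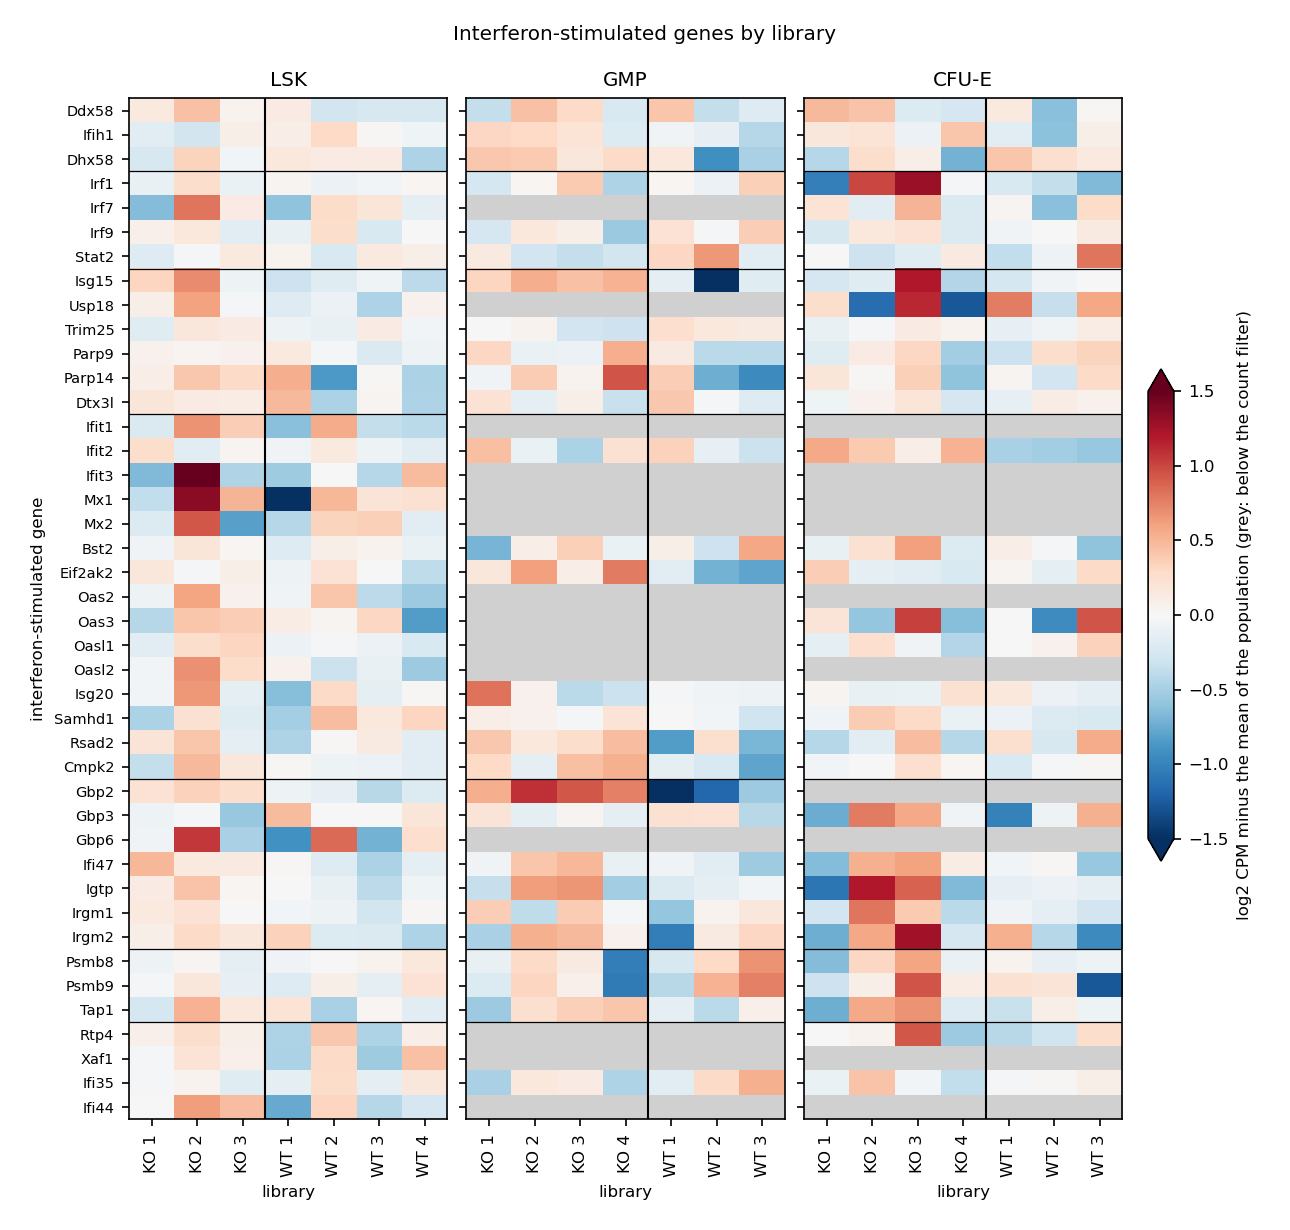
Level of each of the 42 interferon-stimulated genes in each library, as log2 CPM minus the mean over the libraries of its population; columns are libraries (KO left, WT right of the vertical line), rows are genes in role order, and grey marks members below the count filter. LSK KO 2 and CFU-E KO 3 carry the most red, and most rows show no clean split between KO and WT.

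Single libraries stood apart before any comparison of genotypes. In LSK, 24 of the 42 members (57.1%) had their highest level in KO 2, where 13.2% of all genes did. Plasma cell markers were highest there too, 4253 CPM against 1137 and 1236 in the other KO libraries and 472 to 3614 in WT (4 genes, none at 0, most of it from Igj), and their part in the members' values was not tested. In CFU-E, 17 of the 32 tested members (53.1%) had theirs in KO 3, against 9.75% of all genes. A score per library, the mean log2 CPM over the 42 members, gave the same 2 libraries the top place. LSK KO 2 scored 5.43, and the other 6 LSK libraries lay from 4.86 to 5.09. CFU-E KO 3 scored 3.71, CFU-E KO 2 3.34, and the other 5 lay from 2.96 to 3.19. In GMP the 4 KO libraries scored 3.06, 3.18, 3.29 and 2.99, all above the WT scores of 2.95, 2.87 and 2.89. The score weighs all 42 members alike, and 14 of them are below the count filter in GMP. The summed CPM of the members overlapped there, at 1154, 1492, 1531 and 1225 in KO and 1247, 1264 and 1530 in WT.

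Group scores were 5.15 ± 0.239 in LSK KO (SD, n = 3) and 4.95 ± 0.101 in WT (n = 4). They were 3.13 ± 0.130 in GMP KO (n = 4) and 2.90 ± 0.0457 in WT (n = 3). In CFU-E they were 3.27 ± 0.335 in KO (n = 4) and 3.12 ± 0.112 in WT (n = 3). Unlike the gene tests, the score holds no flow cell term. KO 2, KO 3, KO 4 and WT 3 were on flow cell B and KO 1, WT 1 and WT 2 on A. Genotype and flow cell are thus partly mixed in the CFU-E score difference. The LSK difference of 0.21 was 0.07 without KO 2, and the CFU-E difference of 0.15 was 0.01 without KO 3. The GMP difference of 0.23 lay between 0.17 and 0.27 with any 1 library left out. No test was made of the score, since its members were chosen with earlier results known.

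**Figure D2:**
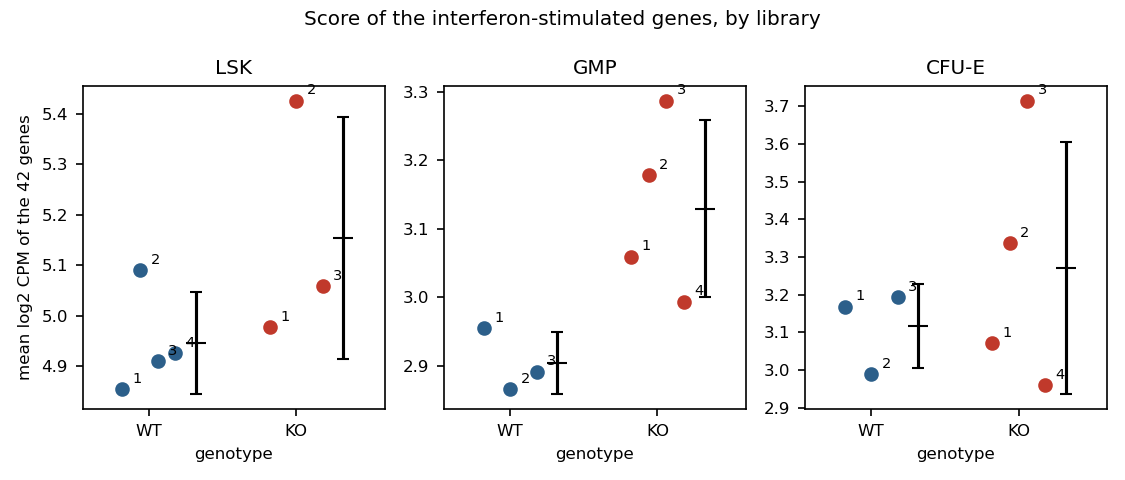
Score of the interferon-stimulated genes in each library, as mean log2 CPM over the 42 members (vertical axes do not start at 0 and differ between panels), by genotype; points are libraries with their replicate number, and the bar with its cross line is the group mean ± SD. The GMP groups do not overlap (2.99 to 3.29 in KO, 2.87 to 2.95 in WT), while 1 KO library leads in LSK (5.43) and in CFU-E (3.71). Of the 42 members, 14 are below the count filter in GMP and 10 in CFU-E. The scores hold no flow cell term.

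In LSK cells the members were slightly higher in KO on the whole, and none of them passed the test. Of the 42, 36 had a positive difference, the median log2 difference was 0.22, and 7 had an unadjusted p under 0.05, 16.7% of them against 7.88% of all 17664 genes. Over all genes the median was 0.00 and 50.6% were positive. With edgeR's quasi-likelihood test and Benjamini-Hochberg adjustment, 0 of 42 members and 14 genes in all (0.0793%) were called. DESeq2 called 1 member, Gbp2, where it called 1.94% of genes, and limma-voom called none. Without KO 2 the median of the members was 0.09. In every KO library 3 members, Gbp2, Ifi47 and Igtp, lay above every WT library (3.26% of all genes did), and 1 member, Gbp3, lay below (4.63%).

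The GTPases of the GBP and IRG families attack the vacuoles of intracellular microbes, and the 3 members whose LSK groups did not overlap upward were all among them. Gbp2 read 57.4, 63.0 and 59.4 CPM in the KO libraries and 47.2, 45.4, 37.1 and 43.0 in the WT libraries. Both groups are tight and apart, with a log2 difference of 0.47 ± 0.119 (SE) and an adjusted p of 0.268; by DESeq2 the adjusted p was 0.0386. With each of the 7 libraries left out in turn the difference lay between 0.41 and 0.52. Ifi47, an IRG protein, read 393, 309 and 307 CPM in the KO libraries and 283, 243, 201 and 255 in the WT libraries, a difference of 0.45 ± 0.155 (adjusted p = 0.476). Here KO 1 was the highest library and not KO 2. Igtp, which guards against Toxoplasma, read 89.3, 110.1 and 83.3 CPM in the KO libraries and 81.3, 75.8, 62.3 and 78.6 in the WT libraries, a difference of 0.34 ± 0.143 (adjusted p = 0.612). Its lowest KO library was just above its highest WT library. Gbp3, named after its values were seen, had the opposite sign, with 82.5, 85.7 and 58.7 CPM in the KO libraries and 121, 86.8, 86.4 and 98.6 in the WT libraries (-0.38 ± 0.177, adjusted p = 0.682).

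In the ISG15 system and its ligases, 6 of 6 LSK differences were positive, from 0.07 to 0.59. Isg15, which is linked to other proteins like ubiquitin, read 7.71, 10.032 and 5.81 CPM in the KO libraries and 4.92, 5.41, 5.84 and 4.66 in the WT libraries (0.59 ± 0.231, adjusted p = 0.557). The high value is KO 2, and KO 3 lay within the WT range. Usp18, which removes ISG15 and shuts off the type I receptor, lay from 19.5 to 29.9 CPM in KO and from 14.3 to 20.6 in WT (0.41 ± 0.200). The antiviral effectors had 14 of 15 positive differences, from -0.26 (Samhd1, which degrades nucleotides) to 0.71 (Mx1, a GTPase that traps viral particles). Oasl2, of the 2′-5′ oligoadenylate synthetase family, read 43.2, 71.5 and 54.0 CPM in the KO libraries and 46.6, 35.6, 41.4 and 30.5 in the WT libraries (0.55 ± 0.202, adjusted p = 0.524). KO 2 was again the highest and KO 1 was inside the WT range. Mx1 read 1.54, 5.24 and 2.89 CPM in the KO libraries and 0.326, 2.87, 2.32 and 2.37 in the WT libraries, and its SE was 0.643. Ifit3, which acts with Ifit1 on viral RNA, was at 3.88 CPM in KO 2 and from 0.741 to 1.72 in the other 6. Mx1, Ifit3 and Samhd1 were named after their values were seen.

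The RNA sensors gave no common direction in LSK. Ddx58, the gene of RIG-I, read 65.7, 80.8 and 61.9 CPM in the KO libraries and 64.8, 49.3, 50.2 and 50.3 in the WT libraries (0.37 ± 0.147, adjusted p = 0.564). WT 1 lay with the KO libraries and the other 3 WT libraries were nearly equal. Ifih1, the gene of MDA5, had a difference of -0.20 ± 0.149 and Dhx58 one of 0.03 ± 0.204. The transcription factors were close to 0, from -0.04 (Stat2) to 0.24 (Irf7, the amplifier of type I interferon). Irf7 was highest in KO 2 at 46.9 CPM and lowest in KO 1 at 17.0, with WT from 17.6 to 32.3. Antigen processing genes, the immunoproteasome subunits Psmb8 and Psmb9 and the peptide transporter Tap1, ran from -0.10 to 0.25. Of the remaining 4, Ifi44 read 20.5, 31.7 and 28.1 CPM in the KO libraries and 12.1, 25.6, 15.2 and 17.2 in the WT libraries (0.61 ± 0.265, adjusted p = 0.623).

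Summed monocyte markers were lower in LSK KO than in most WT libraries (98.1 to 222 CPM against 207 to 404, 7 genes, none at 0), as were markers of conventional dendritic cells (134 to 179 against 186 to 325, 6 genes, none at 0), a sum carried by Flt3, at 116 to 253 CPM, which multipotent progenitors also express. Plasmacytoid dendritic cell markers, of the cells that make most type I interferon, summed to 19.7 to 35.6 CPM with the knockout and 25.8 to 35.4 without (7 genes, none at 0); Il3ra gave 9.75 to 25.5 of it. The part of these cells in the LSK values was not tested.

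In GMP 1 member was called higher, Gbp2, and the direction of the others was mixed. Of the 28 members tested, 18 had a positive difference and the median was 0.21, against 0.02 over all genes. Over all genes 1.45% were called in either direction. The share of members called higher, 3.57% against 0.451% of all 9969 genes, rests on Gbp2 alone. At an unadjusted p under 0.05 there were 4 members, a share of 14.3% against 17.9% of genes. Gbp2 read 5.18, 7.84, 6.95 and 6.06 CPM in the 4 libraries labelled KO and 0.699, 1.14 and 2.11 in the WT libraries. Every KO library was above every WT library, a 4.97-fold difference (log2 2.31 ± 0.474, adjusted p = 0.0242). Gbp2 passed the count filter through the libraries labelled KO, and no WT library reached the minimum count of 10. Its place among the tested members and its call thus rest on the same KO values, and the size of the fold is uncertain. The counts behind the call are small, from 7 to 28 per KO library and from 3 to 8 per WT library. By library total alone, without TMM scaling, 3 counts correspond to 0.682 to 0.804 CPM in WT and 0.864 to 2.399 in KO. The call held without KO 1 or without KO 4 (adjusted p = 0.0334 and 0.00945), and ended without KO 2, KO 3, WT 1, WT 2 or WT 3, at adjusted p = 0.0527, 0.0568, 0.0740, 0.183 and 0.0586. The log2 difference was between 1.98 and 2.81 throughout. In GMP counts thinned to the smallest library total, Gbp2 no longer passed the filter.

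Other effectors had groups that did not overlap in GMP. Eif2ak2, the gene of PKR, which halts translation on sensing double-stranded RNA, read 28.9, 39.5, 27.5 and 44.1 CPM in the KO libraries and 22.6, 15.4 and 14.5 in the WT libraries. The lowest KO library exceeded the highest WT library, and the log2 difference was 1.001 ± 0.270 with an adjusted p of 0.0827; DESeq2 called it (0.0349), in a fit that called 3.01% of genes. Cmpk2, a mitochondrial nucleotide kinase next to Rsad2 in the genome, read 30.3, 22.4, 33.9 and 36.0 CPM in the KO libraries and 22.4, 20.9 and 14.0 in the WT libraries (0.68 ± 0.265, adjusted p = 0.208). KO 2 and WT 1 almost met. Rsad2 read 7.40, 6.16, 6.66 and 7.75 CPM in the KO libraries and 2.80, 6.58 and 3.17 in the WT libraries (0.74 ± 0.399, adjusted p = 0.332), and WT 2 lay inside the KO range. Isg15 read 6.66, 7.84, 7.24 and 7.75 CPM in the KO libraries and 4.66, 1.43 and 4.48 in the WT libraries (1.05 ± 0.415, adjusted p = 0.214). The groups did not overlap, and the difference was 0.69 without WT 2, the lowest library. In all, 5 tested members lay above WT in every KO library (7.37% of all genes), Gbp2, Eif2ak2, Cmpk2, Isg15 and the sensor regulator Dhx58, and 1 lay below (8.46%), Trim25, the ligase that activates RIG-I, named after its values were seen.

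**Figure D3:**
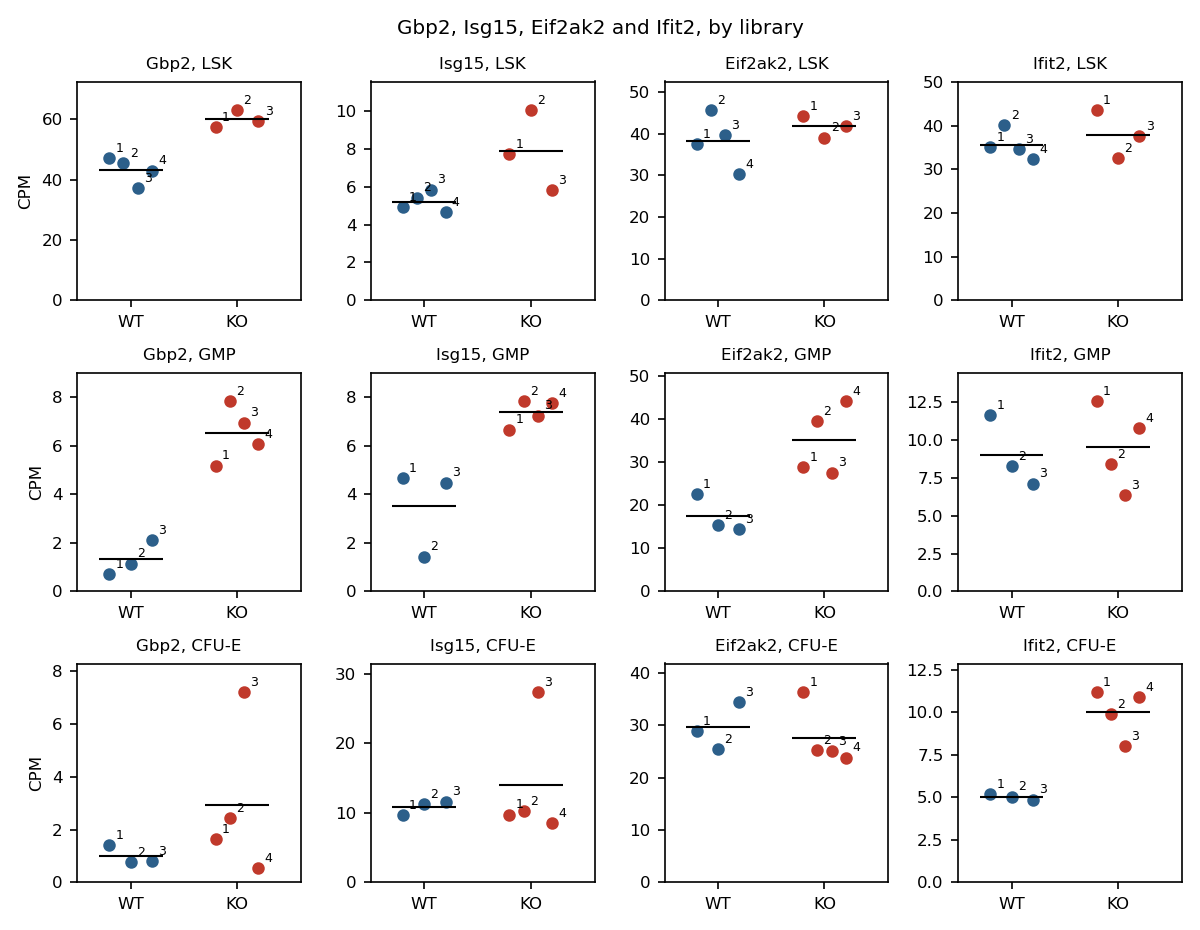
Level in CPM (vertical axes start at 0) of Gbp2, Isg15, Eif2ak2 and Ifit2 in LSK, GMP and CFU-E libraries by genotype; each point is a library with its replicate number and the line is the group mean. Gbp2 separates KO from WT in LSK and GMP, Eif2ak2 and Isg15 separate them in GMP, and Ifit2 separates them in CFU-E (8.02 to 11.2 against 4.85 to 5.17).

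Other groups of GMP members had mixed or negative values. Parp14, an ADP-ribosyltransferase, read 11.8, 16.2, 12.7 and 24.2 CPM in the KO libraries and 16.1, 7.15 and 6.07 in the WT libraries (0.74 ± 0.369, adjusted p = 0.302), with KO 2 level with WT 1 and KO 4 above it. It ran from 0.48 without WT 3 to 1.31 without WT 1. Ifi47 read 30.3, 42.3, 44.9 and 29.3 CPM in the KO libraries and 30.5, 28.0 and 21.6 in the WT libraries (0.47 ± 0.249, adjusted p = 0.327). Of the 6 tested GTPases 5 had positive differences. All 3 sensors were positive, from 0.11 to 0.72, and all 3 tested transcription factors negative, from -0.55 (Stat2) to -0.15 (Irf1). Psmb8 and Psmb9 were negative as well, -0.39 ± 0.294 and -0.50 ± 0.316. KO 4 was the lowest library of each, at 115 and 38.4 CPM against 199.6 to 377 and 60.6 to 137 in WT. KO 4 also stood apart over all genes, as the highest library for 29.8% of them (WT 3 for 23.9%). LSK markers summed to 554 CPM in KO 4 and 239 to 316 in the other GMP libraries (7 genes, with Slamf1 at 0). GMP markers summed to 21254 in KO 4 and 32588 to 53744 in the others (6 genes, none at 0). Neutrophil markers summed to 73298 to 120595 CPM in the KO libraries and 154214 to 204659 in WT (6 genes, none at 0). Plasmacytoid dendritic cell markers overlapped, 33.7 to 111.7 in KO and 53.6 to 124 in WT (7 genes, with Klk1 at 0 in every library). Their part in the differences of the members was not tested.

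In CFU-E no member was called, and the members as a whole did not lean either way. Of the 32 tested, 15 differences were positive and 17 negative, with a median of -0.01. The share called by edgeR was 0 of 32, against 1.06% of 10170 genes. One member had an unadjusted p under 0.05 (3.13%, against 9.82% of genes), and DESeq2 (1.79% of genes) and limma-voom also called 0. That member was Ifit2, which binds viral RNA and curbs its translation. It read 11.2, 9.87, 8.02 and 10.9 CPM in the KO libraries and 5.17, 5.04 and 4.85 in the WT libraries, a difference of 1.05 ± 0.305 (adjusted p = 0.155). The 3 WT libraries were nearly equal and every KO library was above them, as held for 6.1% of all genes; no tested member was below WT in every KO library, as 5.66% of all genes were. The difference lay between 0.97 and 1.12 with any 1 library left out. The related Ifit1 and Ifit3 were at most 0.823 CPM in every CFU-E library.

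By role, positive differences were found in 2 of 3 sensors, 2 of 4 transcription factors, 1 of 6 genes of the ISG15 system, 5 of 9 effectors, 3 of 5 GTPases and 1 of 3 genes of antigen processing. The next 5 members by p overlapped between genotypes. Rsad2 read 11.4, 13.8, 21.4 and 11.4 CPM in the KO libraries and 18.3, 12.996 and 22.9 in the WT libraries (-0.51 ± 0.276). Samhd1 read 113, 152, 143 and 109 CPM in the KO libraries and 110.4, 102 and 100.1 in the WT libraries (0.27 ± 0.169), and Ifih1 read 17.1, 17.5, 14.2 and 20.4 and 13.4, 9.70 and 16.2 (0.32 ± 0.253). Bst2, the tetherin that holds budding virus on the cell, read 86.6, 110.5, 145 and 81.7 CPM in the KO libraries and 100.3, 91.9 and 61.8 in the WT libraries (0.37 ± 0.254). Stat2 read 9.76, 7.82, 8.64 and 10.9 CPM in the KO libraries and 7.52, 9.31 and 17.5 in the WT libraries (-0.43 ± 0.303). The adjusted p of these 5 ran from 0.608 to 0.756. The fit holds a flow cell term, so that without WT 3 it compares KO 1 alone with WT 1 and WT 2, and without KO 1 it compares the other KO libraries with WT 3 alone. Without WT 3 the differences were -0.15 for Bst2, 0.20 for Stat2, 0.09 for Samhd1 and 0.57 for Ifih1, and without KO 1 they were 0.86, -0.96, 0.42 and 0.09. Isg15 lay from 8.49 to 11.6 CPM in 6 libraries and at 27.4 in KO 3.

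**Figure D4:**
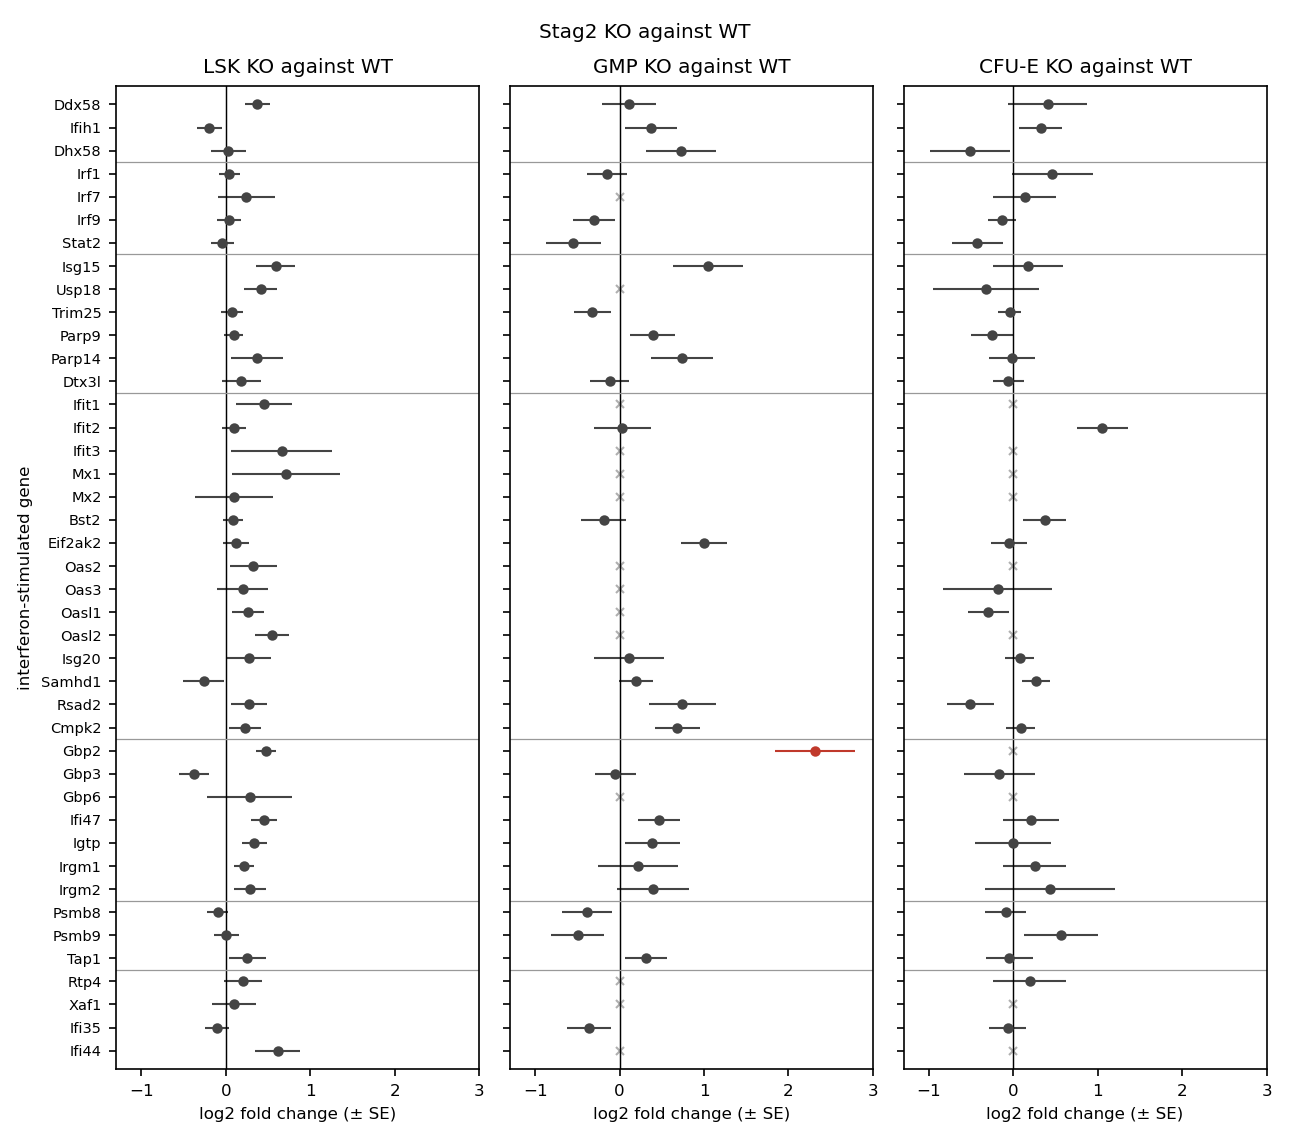
Log2 fold change of each member, KO against WT, with its SE, in LSK, GMP and CFU-E (horizontal axis; CFU-E with a flow cell term); the red point is past an adjusted p of 0.05, dark points are not, and grey crosses at 0 mark members that were not tested. Gbp2 in GMP (2.31) is the red point, and 36 of 42 LSK points lie right of 0.

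The KO libraries of CFU-E split among themselves, and the genes named here were picked for it after the values were seen. Igtp read 12.2, 61.3, 48.9 and 16.4 CPM in KO 1 to KO 4 and 24.2, 24.6 and 24.0 in the WT libraries. The WT libraries were nearly equal, KO 2 and KO 3 were above them and KO 1 and KO 4 below, and the fitted difference had an SE of 0.448 around a value of 0.00. Irf1, an early transcription factor of the response, read 13.008, 54.8, 67.0 and 26.5 CPM in the KO libraries and 23.0, 20.9 and 17.0 in the WT libraries. Tap1 read 145, 358, 385 and 211 CPM in the KO libraries and 191, 255 and 229 in the WT libraries. In both genes KO 2 and KO 3 were again above all WT libraries and KO 1 was below them. Irgm1, an IRG protein needed for stem cell quiescence, read 7.52, 16.6, 12.3 and 6.90 CPM in the KO libraries and 8.93, 8.34 and 7.55 in the WT libraries. The mean log2 CPM of the 7 GTPases was 1.82, 2.94, 3.12 and 1.98 in KO 1 to KO 4, against 2.20, 2.10 and 2.01 in WT.

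In GMP, Igtp and the GTPase mean were again highest in the KO libraries numbered 2 and 3, but most members were not. Of the 28 tested, 7 (25%) were highest in KO 4, against 29.8% of all genes, and 5 in WT 3 (23.9% of genes). KO 1, KO 2 and KO 3 each led in 4 (14.3%), against 11.5%, 7.90% and 5.75% of genes. Igtp read 10.4, 20.998, 21.4 and 9.09 CPM in GMP KO 1 to KO 4 and 11.4, 12.0 and 12.9 in the WT libraries, so KO 2 and KO 3 were above WT and the other two below it. The GTPase mean was 2.79, 3.06, 3.26 and 2.76 in KO 1 to KO 4, all above the WT values of 2.29, 2.60 and 2.60. In CFU-E, KO 1 and KO 4 were instead below every WT library. The mean includes Gbp2, the gene called in GMP, and Gbp6, which is below the count filter there. Of the 6 GTPases tested in GMP, only 1, Gbp2, lay above WT in every KO library (7.37% of all genes did). The groups of the others overlapped. Same-numbered WT libraries did not run alike, WT 1 having the lowest GTPase mean in GMP and the highest of the WT libraries in CFU-E. The score over all members put KO 3 first, then KO 2, KO 1 and KO 4, in both GMP and CFU-E. The labels do not say that same-numbered libraries of the 2 populations came from the same animals. Over all genes, deviations from the group mean correlated between same-numbered GMP and CFU-E libraries with r from -0.18 to 0.11 (7 pairs, a description across genes).

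Both high CFU-E libraries, KO 2 and KO 3, were on flow cell B with KO 4 and WT 3, which were not high. CFU-E KO 1, WT 1 and WT 2 were on flow cell A, as were all GMP libraries. Within flow cell B the members had a median difference of 0.05 and within A one of -0.12. Each of these fits has 1 library in an arm (WT 3 in B, KO 1 in A), so that the absence of called members in them says little. Megakaryocyte markers were higher in CFU-E KO (391.5 to 910.5 CPM against 117 to 258 in WT, 6 genes, none at 0), and their part in the values of the members was not tested.

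**Figure D5:**
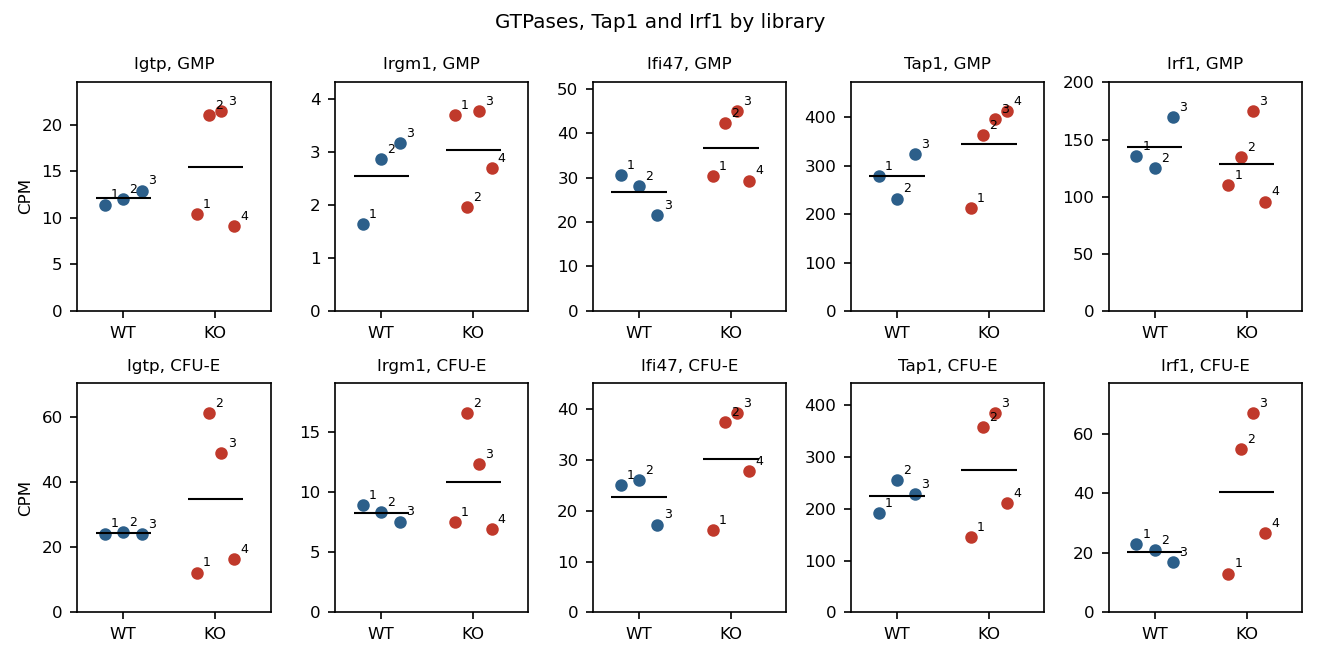
Level in CPM (vertical axes start at 0) of Igtp, Irgm1, Ifi47, Tap1 and Irf1 in GMP (top) and CFU-E (bottom) libraries by genotype; points are libraries with their replicate number and lines are group means. In CFU-E, KO 2 and KO 3 lie above every WT library in each of the 5 genes, which were picked after their values were seen (Igtp 61.3 and 48.9 CPM against 24.0 to 24.6).

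The rest of the pathway was followed with a list of 44 other genes, of which 43 are rows of the table. In LSK 36 were tested, in GMP 28 and in CFU-E 25, and edgeR called 0 in each population. At an unadjusted p under 0.05 there were 4, 3 and 4 (11.1%, 10.7% and 16% of those tested), against 7.88%, 17.9% and 9.82% of all genes. DESeq2 called 2 in LSK (1.94% of genes), Ifngr2 and Socs3, and 0 in GMP (3.01%) and CFU-E (1.79%). With no filter on low counts edgeR called 3 in GMP (3.2% of genes), Ifnk, Irf2 and Rnaseh2c, at adjusted p = 0.00868, 0.0462 and 0.0244. Median log2 differences were -0.04, -0.11 and -0.03. In LSK, 2 of the 36 lay above WT in every KO library (3.26% of all genes) and 2 below (4.63%). In GMP, 0 of the 28 lay above (7.37%) and 1 below (8.46%). In CFU-E, 1 of the 25 lay above (6.1%) and 4 below (5.66%).

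Ligands were at or near 0. Of 7, 6 had no count in any GMP library and 4 none in any CFU-E library. The one left in GMP, Ifnk, the gene of interferon kappa, had 0, 5, 2 and 14 counts in the KO libraries (up to 4.71 CPM) and 0 in each WT library, and did not pass the filter. Ifnb1, the gene of interferon beta, had 3 to 21 counts per LSK library (-1.22 ± 0.621, adjusted p = 0.728). Ifng, the gene of interferon gamma, was looked at after its values were seen. It had 52 counts (1.98 CPM) in LSK KO 2, the library with the highest score, 7 counts in KO 3, and 0 to 3 counts in the other 5. It was at 0 in all GMP libraries and had 1 count in 1 CFU-E library. T and NK cell markers, of the main makers of interferon gamma, summed to 312 to 432 CPM in the KO libraries of LSK and 388 to 647 in the WT libraries (7 genes, none at 0). Nearly all of that sum was Nkg7, at 305 to 617 CPM, while none of the 3 CD3 chain genes exceeded 5.85 CPM.

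Receptor genes had 6 of 6 negative differences in LSK, from -0.64 to -0.04. Ifnar1 and Ifnar2, of the type I receptor and named after their values were seen, differed little (-0.13 ± 0.123 and -0.10 ± 0.107). Ifngr2, a chain of the interferon gamma receptor, read 34.3, 31.1 and 40.8 CPM in the KO libraries and 45.6, 54.4, 49.5 and 59.6 in the WT libraries (-0.56 ± 0.146, adjusted p = 0.295). Every KO library was below every WT library. Ifngr1, the other chain, read 147, 188 and 157 CPM in the KO libraries and 178, 261, 276 and 311 in the WT libraries (-0.64 ± 0.196, adjusted p = 0.395), with KO 2 above WT 1. In CFU-E 3 of the 5 tested receptor genes had negative differences and 2 positive ones. The groups of Ifngr1 were apart there, 219, 234, 245 and 273 CPM in the KO libraries and 317, 328 and 321 in the WT libraries (-0.45 ± 0.138, adjusted p = 0.186). Il10rb, shared by the interleukin-10 and lambda interferon receptors, was also lower in each CFU-E KO library, 6.52 to 12.5 CPM against 13.2 to 20.4 (-0.68 ± 0.294, adjusted p = 0.446).

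Feedback inhibitors and other regulators followed. Socs3, a feedback inhibitor of JAK signalling, read 53.5, 34.2 and 49.1 CPM in the LSK KO libraries and 30.3, 31.1, 26.3 and 21.3 in the WT libraries (0.74 ± 0.195, adjusted p = 0.299), and the groups did not overlap. Ptpn6, the phosphatase SHP-1, was lower in each CFU-E KO library, 41.9 to 59.6 CPM against 62.0 to 71.6 (-0.49 ± 0.185, adjusted p = 0.351). Irf8, which drives monocyte and dendritic fates, read 76.5, 221 and 139 CPM in the LSK KO libraries and 115, 270.1, 364 and 404 in the WT libraries (-0.99 ± 0.457, adjusted p = 0.671). Its groups overlapped, and the part of monocytes and dendritic cells in its values was not tested. In GMP, Irf2 read 73.3, 66.4, 90.9 and 185 CPM in the KO libraries and 71.3, 47.8 and 54.9 in the WT libraries (0.84 ± 0.320, adjusted p = 0.2), led by KO 4. Rnaseh2c, a subunit of the enzyme that clears RNA from DNA, read 142, 183, 166 and 86.6 CPM in the GMP KO libraries and 194, 256 and 318 in the WT libraries (-0.83 ± 0.263, adjusted p = 0.134), below WT in every KO library. Mavs, the adaptor of the RNA sensors, read 18.3, 11.9, 14.2 and 12.996 CPM in the CFU-E KO libraries and 11.7, 9.31 and 8.63 in the WT libraries (0.70 ± 0.252, adjusted p = 0.307), above WT in every KO library.

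Whether the knockout effect on a member differed between populations was tested as an interaction. edgeR called 0 of 42 members between LSK and GMP (0% of all genes), 0 of 32 between CFU-E and GMP (0.445%) and 0 of 42 between LSK and CFU-E (0.0425%). Of the 42, 14 failed the count filter in the GMP fit and 10 in the CFU-E fit. The LSK contrasts hold them at low counts in those populations, so 0 calls say little about them. The CFU-E and GMP contrast likewise holds Irf7, Usp18, Oasl1 and Rtp4, which failed in GMP, and Gbp2, which failed in CFU-E. Gbp6, at 0 in every CFU-E library, had an SE of 6283 (LSK minus CFU-E). At an unadjusted p under 0.05 there were 2 of 42, 3 of 32 and 2 of 42 members, against 10.6%, 13.6% and 7.4% of all genes. DESeq2 called 1 member between LSK and GMP, Gbp2 (0.454% of genes), and none between CFU-E and GMP (1.37%) or LSK and CFU-E (0.647%). The log2 effect on Gbp2 differed by -1.82 ± 0.397 (LSK minus GMP, adjusted p = 0.234 by edgeR and 0.0186 by DESeq2). The Eif2ak2 effect differed by -0.81 ± 0.310 (LSK minus GMP, adjusted p = 0.413) and by -0.97 ± 0.347 (CFU-E minus GMP, adjusted p = 0.261). The Ifit2 effect differed by -1.01 ± 0.275 (LSK minus CFU-E, adjusted p = 0.309) and by 1.11 ± 0.448 (CFU-E minus GMP, adjusted p = 0.297). The 3 contrasts share libraries. Contrasts with LSK also span 2 library kits and both sexes: Xist lay from 154 to 320.5 CPM in LSK and reached at most 9.98 elsewhere, and the sum of 4 Y-linked genes was at most 0.0409 CPM in LSK and from 66.7 to 196 elsewhere. Kit and sex cannot be told apart from the population there.

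Between WT erythroid and WT myeloid progenitors many members differed. Of 31 tested, 18 were called (58.1%, against 46.9% of all 10329 genes), 9 higher in CFU-E (21.9% of genes) and 9 lower (25%), shares near those of genes at large. CFU-E WT 3, alone on its flow cell in this fit, is taken up by the flow cell term, so the contrast rests on CFU-E WT 1 and WT 2 against the 3 GMP libraries. Values here are CPM scaled over the 6 WT libraries. Isg20, an exonuclease that degrades viral RNA, read 51.1, 45.2 and 42.7 CPM in the CFU-E libraries and 5.22, 5.08 and 4.85 in the GMP libraries, 9.48-fold higher (log2 3.25 ± 0.309, adjusted p = 4.56e-09). Oasl1, which restrains Irf7 translation, read 12.8, 14.2 and 16.9 CPM in the CFU-E libraries and 0.783, 1.59 and 1.71 in the GMP libraries, 9.90-fold higher (adjusted p = 1.36e-06). It failed the filter in the GMP fit and passed here through CFU-E. Its GMP values are 3 to 6 counts per WT library, so the size of the fold is uncertain. Trim25 lay from 84.7 to 102 CPM in CFU-E and from 37.1 to 41.5 in GMP (adjusted p = 0.000248), and Rsad2 from 11.3 to 19.4 and from 3.13 to 7.30 (adjusted p = 0.00266). These 4 were the higher genes whose calls held with each of the other 5 libraries left out in turn, and they held without the flow cell term, where CFU-E WT 3 counts (adjusted p at most 0.000511). Usp18, Irf9, Irgm1, Irf7 and Isg15 were also called higher, and each call ended without at least 1 library, with adjusted p up to 0.279 then. Usp18 and Irf7 also passed here through CFU-E, with 2 to 4 and 4 to 8 counts per WT GMP library.

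Genes of antigen processing and their regulator were lower in WT CFU-E. Irf1 read 19.0, 18.3 and 14.4 CPM in the CFU-E libraries and 152, 139 and 184 in the GMP libraries, 8.46-fold lower (log2 -3.08 ± 0.281, adjusted p = 2.21e-09). Psmb8 read 60.0, 56.4 and 56.1 CPM in the CFU-E libraries and 223, 322 and 408 in the GMP libraries, 5.45-fold lower (adjusted p = 1.36e-07), and Psmb9 read 30.3, 31.2 and 10.7 and 67.8, 129 and 149 (adjusted p = 1.60e-05). Gbp3 read 1.75, 3.90 and 5.93 CPM in the CFU-E libraries and 37.3, 36.5 and 22.8 in the GMP libraries, 11.1-fold lower (adjusted p = 1.50e-07), and Ddx58 read 2.72, 1.52 and 2.51 and 17.5, 9.84 and 10.8 (adjusted p = 6.38e-05). These 5 calls also held with each of the 5 libraries that bear on the contrast left out, and without the flow cell term (adjusted p at most 1.77e-05). Tap1, Ifit2, Irgm2 and Dtx3l were called lower, and each of these calls ended without at least 1 library, with adjusted p up to 0.372. The count of members called ran from 11, without CFU-E WT 1, to 19, and was 21 without the flow cell term. The other sensors were not called, Ifih1 with a log2 difference of 0.11 ± 0.356 and Dhx58 with -0.21 ± 0.494.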

How the data were processed

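The authors deposited raw counts, whole numbers per gene for 30733 genes in 21 libraries. They name STAR 2.4, HTSeq 0.6.1, DESeq2 and the build mm9, per the submitters' processing notes; no source used here gives the annotation or strand setting, which leaves overlapping, antisense and near-identical genes uncertain. Per the labels' protocols, LSK libraries were made with SMARTer kits over whole transcripts, and the others from 3′ ends after SMART-Seq2. All columns were matched to samples, and 0 were left out. Groups came from the labels. The members and lists were chosen with earlier results of these data known.

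Counts were tested with edgeR 4.0.16 in R 4.3.3 (filterByExpr with a minimum count of 10 and total of 15, TMM, quasi-likelihood F test) over all genes that passed, with Benjamini-Hochberg adjusted p under 0.05; CFU-E and WT fits held a flow cell term. Levels are TMM-scaled CPM; the score uses a prior count of 2. SE is the log2 fold change over the square root of F. Alternatives were DESeq2 1.42.0, limma-voom 3.58.1, no or a stricter filter (5 CPM), each library left out, flow cell settings, the replicate number as a block and thinned GMP counts. Scripts were tested on simulated data. No 2 libraries of a group agreed within sampling noise (chi-square per degree of freedom at least 4.03).

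Members named with values per library were those called and the 6 with the smallest p in each population; others, at most 3 per role, follow the same order, and genes picked after their values were seen are said to be. Of the pathway list, Ifne was not matched. Other genes of that list without values enter through its counts, and 1 is not reported here.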

Additional observations from a re-analysis of the deposited data

Results flagged for a closer look

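In groups of 4 libraries, 6 of 105 values checked held 1 library far from the other 3, beyond Dixon's 95% limit; chance gives about 1 in 20. Ddx58 was at 64.8 CPM in LSK WT 1, with 49.3 to 50.3 in the other WT libraries. Dhx58 was at 17.4 CPM in LSK WT 4, with 26.1 to 26.7 in the others. Ifit1 was at 13.3 CPM in LSK WT 2, with 5.83 to 7.02 in the others. Isg15 was at 27.4 CPM in CFU-E KO 3, with 8.49 to 10.2 in the others. Eif2ak2 was at 36.4 CPM in CFU-E KO 1, with 23.9 to 25.3 in the others. Stat2 was at 9.62 CPM in GMP KO 1, the shallowest library, with 6.66 to 7.07 in the others. No member lay above WT in every KO library of 1 population and below in every KO library of another.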

How the results depend on the processing

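Of 980 values recomputed, 864 kept their direction and side of the threshold, or moved by less than the spread or 1.5 times. DESeq2 called 342 genes and 1 member in LSK (Gbp2), 300 and 2 in GMP (Gbp2 and Eif2ak2), 182 genes in CFU-E, and 61 genes and 1 member, 133 and 88 genes in the interactions LSK minus GMP, CFU-E minus GMP and LSK minus CFU-E; limma-voom called 3 in the last. With no filter on low counts the calls were 38, 601 and 333 genes (2 members in GMP, median 0.35) and 12, 254 and 32 in the interactions, and the WT median was 0.15. Genes called higher made up 24.9% of DESeq2's LSK calls (35.7% by edgeR), 44% in GMP (31.0%), and without the filter 52.4% in GMP and 55.9% in CFU-E (33.3%); for LSK minus CFU-E DESeq2 gave 46.6% (57.1%). Thinned GMP counts gave 27 genes and 0 members. Without the flow cell term 234 genes were called in CFU-E. Within flow cell A the differences of Bst2 and Stat2 were -0.16 and 0.19, and with 1 library left out they ran from -0.15 (without CFU-E WT 3) to 0.86 and from -0.96 to 0.20 (without CFU-E WT 3); the flow cell term leaves KO 1 alone against WT 1 and WT 2 in both settings.

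With 1 library left out, genes called ran from 0 to 123 in LSK, 38 to 211 in GMP (0 to 1 members), 22 to 143 in CFU-E, 0 to 8 for LSK minus GMP (median -0.28 to 0.11), 2 to 72 for CFU-E minus GMP (median -0.43 to 0.091) and 1 to 24 for LSK minus CFU-E, and the WT comparison called 11 to 19 members (median -0.049 to 0.16).

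Whether the replicate numbers pair the libraries is not known. Deviations of same-numbered KO and WT libraries correlated from 0.003 to 0.108 in LSK, -0.157 to 0.240 in GMP and -0.183 to 0.254 in CFU-E. Differently numbered ones correlated from -0.195 to 0.169, -0.333 to 0.449 and -0.400 to 0.261. With 3 same-numbered pairs per population, inside those ranges, the correlations cannot decide it. With the replicate block, 0 genes were called in LSK, 325 in GMP (2 members, Gbp2 and Eif2ak2) and, with the flow cell term, 31 in CFU-E. Depth limits the members most in GMP, where 14 of 42 were not tested.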
